A study of Homo sapiens with 16 samples.

Results

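The genes described here are the ribosomal RNA (rRNA) genes of the human genome, of which 2 kinds were kept apart. The 5S kind comprised 17 genes, RNA5S1 to RNA5S17, each 121 bp long, on chromosome 1 from 228610266 to 228646158 (hg38). The 45S kind comprised 20 genes in 5 units, and each unit held a 45S precursor gene with the 18S, 5.8S and 28S genes inside it. Members were the genes of type rRNA in the RefSeq gene table of GRCh38.p14, and 37 of the table's 55 such genes could be placed on a sequence of the peak lists. Of the others, 16 are 5S genes on a further sequence that the table gives to chromosome 1 and 2 are mitochondrial, and these were not analysed here. The table placed no rRNA gene on chromosomes 13, 14 or 15. A gene had a peak where a peak overlapped it, or the 1000 bp on either side of it, by at least 1 bp.

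The study mapped proteins and a histone mark on chromatin by immunoprecipitation and sequencing (ChIP-seq), to ask how ARID1A relates to heterochromatin. The cells were HCT116, a long-used cell line from a human colorectal carcinoma. The unmodified cells, whose labels name no shRNA, had ARID1A, H3K9me3 and TRIM28 libraries. Cells with the control hairpin (shCtrl, read from titles with CTR) had ARID1A, H3K9me3, TRIM28 and SETDB1 libraries, and cells with a hairpin against ARID1A (shARID1A) had H3K9me3, TRIM28 and SETDB1 libraries. Each of these 10 groups held 1 library, and the authors called peaks for each against an input and against an IgG control, which gave 20 lists. All cells shared the line, the medium and the crosslinking, and the labels give neither the hairpins nor whether a shRNA line was 1 clone. With 1 library per group, differences between cell states cannot be set against a replicate error, and values are given with no test. An ARID1A library of shARID1A cells was not analysed here, so the loss of ARID1A was not measured and libraries are named by their labels. Peak lists hold no measure of cell identity.

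Ribosomal RNA is the core of the ribosome. The 45S precursor is transcribed by RNA polymerase I in the nucleolus and is cut into 18S, 5.8S and 28S rRNA, with external and internal transcribed spacers (ITS1 and ITS2) removed. The 5S rRNA is transcribed by RNA polymerase III from a separate tandem array, with its control elements inside the gene. Cells carry many near-identical copies of both kinds, and part of them is kept silent in chromatin that carries H3K9me3. ARID1A belongs to the SWI/SNF complex, which moves nucleosomes, TRIM28 is a corepressor that brings SETDB1 to chromatin, and SETDB1 is an enzyme that methylates lysine 9 of histone H3. Copies of one kind share their sequence, so a read can fit several of them and the place of a read among copies cannot be known. The 17 or 20 genes are therefore not replicates of each other. The 5S genes began 2215 to 2242 bp apart, with a median of 2241 bp, so their extended windows nearly touched and 1 wide peak could count for 2 or more genes. The 4 genes of a 45S unit overlapped or were close to each other in the same way.

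Sequences of the rRNA genes themselves are not in the tables used here. Shown instead are RefSeq sequences that lie inside the members' windows, since peaks at them are peaks of the rRNA arrays. A pair of microRNA hairpins lies in the window of the 45S unit RNA45SN1 on chromosome 21. MIR6724-4 spans chr21:8432530-8432621 on the plus strand, from -692 to -601 bp relative to the unit's start, and MIR10396B spans chr21:8436324-8436374 on the plus strand, inside the 5′ external spacer. Capitals mark the mature arms.
MIR6724-4: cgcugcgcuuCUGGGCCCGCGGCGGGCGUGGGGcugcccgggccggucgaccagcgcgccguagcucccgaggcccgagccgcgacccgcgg
MIR10396B: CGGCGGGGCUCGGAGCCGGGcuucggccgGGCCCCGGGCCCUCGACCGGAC

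Each peak carries a fold enrichment, the ratio of precipitated to control coverage at its summit, and a q-value, both as the authors' caller gave them. A peak with q of 0.05 or less is called strong below. The lists were long and included weak peaks, down to a p near 0.05. They held 11519 to 206069 peaks against input and 23786 to 317296 against IgG, and the median fold of all peaks in a list was between 2.23 and 3.48. Sequencing depth was not stated. The most common background of a list, in fragments at a position, serves as a relative depth and was 2.10 to 2.15 in unmodified, 0.90 to 0.96 in shCtrl and 1.12 to 1.16 in shARID1A lists against input. It was assumed that the libraries of a cell state were compared with the same input and the same IgG, so their values are set side by side and their likeness is not counted as evidence.

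The 5S array had peaks against input in shARID1A cells and in no other state. All 17 genes had a peak in each of the H3K9me3, TRIM28 and SETDB1 libraries of shARID1A cells, and 0 of 17 had one in any of the 7 unmodified and shCtrl libraries. The exact Clopper-Pearson 95% interval is 80.5% to 100% for 17 of 17 and 0% to 19.5% for 0 of 17, for counting error only and as if copies were independent, which they are not. Of all 58957 genes placed on a chromosome, 27.4% had a peak in shARID1A H3K9me3, 48.5% in shARID1A TRIM28 and 23.6% in shARID1A SETDB1. In the libraries without 5S peaks the share of all genes was 14.3% for unmodified ARID1A, 7.66% for unmodified H3K9me3 and 16.6% for unmodified TRIM28. In shCtrl cells it was 31.8% for ARID1A, 29.3% for H3K9me3, 25.2% for TRIM28 and 34.7% for SETDB1.

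**Figure D1:**
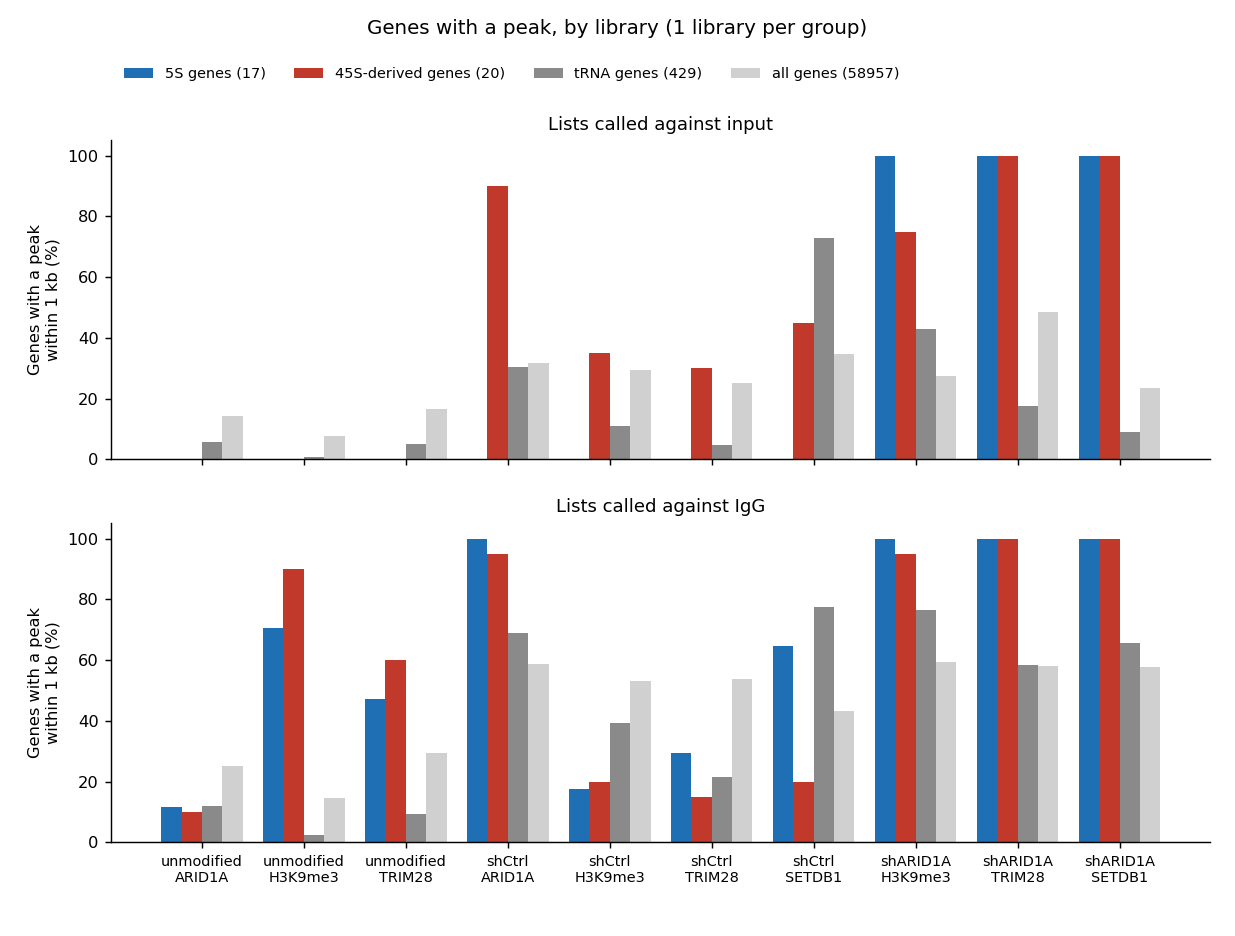
Share of genes with a peak within 1 kb, in percent, for each of the 10 libraries, against input (upper) and against IgG (lower). Bars stand for 17 5S genes, 20 45S-derived genes, 429 tRNA genes and 58957 genes in all. Against input the 5S bars stand only in shARID1A libraries, at 100%, while against IgG shCtrl ARID1A also reaches 100%.

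H3K9me3 in shARID1A cells had 24 peaks in the 5S array against input, 15 of them strong, which covered 22.6% of the array's 37893 bp. Strong peaks lay at 14 genes, where 9.65% of all genes had one. The fold was highest at RNA5S7 with 8.0 and RNA5S3 with 7.39, followed by RNA5S12 with 6.34, RNA5S10 with 6.04 and RNA5S9 with 6.01. RNA5S1, RNA5S2, RNA5S4, RNA5S5, RNA5S11, RNA5S13, RNA5S14, RNA5S16 and RNA5S17 also had a strong peak, and their highest folds were 3.29 to 4.35, at RNA5S11 from a peak that was not strong itself (3.91). The peaks at RNA5S6, RNA5S8 and RNA5S15 were not strong, with highest folds of 2.42, 3.14 and 2.90. The best of these peaks ranked 901 by fold among 57591 peaks of its list.

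TRIM28 covered most of the array. In shARID1A cells it had 34 peaks against input, 20 of them strong, over 65.6% of the bases, and 16 genes had a strong peak where 2.05% of all genes did. RNA5S8 led with a fold of 10.0, from a peak of 1746 bp at 228625134 to 228626879 that ranked 15 among 206069 peaks of the list. RNA5S1 reached 7.93, RNA5S3 7.77, and RNA5S16 and RNA5S17 shared a peak of 2393 bp with a fold of 7.32. RNA5S6 and RNA5S7 stood at 7.04, RNA5S10 and RNA5S11 at 6.54, and RNA5S2, RNA5S4, RNA5S5, RNA5S9, RNA5S12, RNA5S13 and RNA5S14 between 3.82 and 5.05. Only RNA5S15 had no strong TRIM28 peak, with a highest fold of 3.06.

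SETDB1 in shARID1A cells had 29 peaks against input, 15 of them strong, over 43.5% of the array. Of the 17 genes 13 had a strong peak, where 1.93% of all genes did. The highest folds were 6.83 at RNA5S7, 6.56 at RNA5S4, 6.49 at RNA5S10 and RNA5S11, and 6.16 at RNA5S17. Folds of strong peaks at RNA5S1, RNA5S2, RNA5S3, RNA5S5, RNA5S9, RNA5S12, RNA5S13 and RNA5S16 were 4.09 to 5.52. RNA5S6, RNA5S8, RNA5S14 and RNA5S15 had peaks that were not strong, with folds of 3.96, 3.88, 2.53 and 2.44. RNA5S15 was thus the gene without a strong peak in any of these libraries against input, while RNA5S7 was the highest gene in H3K9me3 and in SETDB1. Against IgG, RNA5S7 was instead the lowest of the 17 in both, with folds of 3.46 and 3.54.

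Against IgG, shCtrl and unmodified cells had 5S peaks as well. All 17 genes again had peaks in the shARID1A libraries, and all 17 had strong ones. The highest fold per gene ran from 3.46 to 10.0 in H3K9me3, from 4.24 to 12.2 in TRIM28 and from 3.54 to 10.0 in SETDB1, and peaks covered 41.7%, 73.3% and 65.8% of the array. Of all genes, 59.5%, 58.0% and 57.7% had a peak in these lists, and 26.1%, 5.17% and 9.68% a strong one. The shCtrl ARID1A library also had strong peaks at all 17 genes. Its 30 peaks, 17 of them strong, covered 67.4% of the array, with highest folds per gene from 3.89 at RNA5S5 to 10.3 at RNA5S6, RNA5S7 and RNA5S8. A peak of that fold ranked 4 among 317296 in the list, in which 58.7% of all genes had a peak and 3.83% a strong one. Strong peaks at all 17 genes were thus also found in shCtrl cells, in the ARID1A library and against IgG.

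The other shCtrl libraries had fewer 5S peaks against IgG. SETDB1 had peaks at 11 genes and strong ones at 10, with folds of 3.49 to 8.23, where 43.3% and 32.8% of all genes had a peak and a strong one. TRIM28 had peaks at 5 genes with folds of 3.08 to 5.56, strong at RNA5S5 and RNA5S15, where the shares of all genes were 53.7% and 0.4%. H3K9me3 had peaks at 3 genes, RNA5S2, RNA5S9 and RNA5S14, strong at RNA5S2 with a fold of 4.89 and at RNA5S14 with 3.51, where the shares were 53.0% and 12.1%. The difference between shARID1A and shCtrl cells was accordingly 17 genes against input for each of the 3 antibodies, and 14, 12 and 6 genes against IgG for H3K9me3, TRIM28 and SETDB1.

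In unmodified cells the 5S array had low peaks only, and only against IgG. ARID1A had peaks at 2 genes, H3K9me3 at 12 and TRIM28 at 8, and 0 of them were strong. Folds were 1.43 to 1.72, 1.26 to 1.99 and 1.35 to 2.08, below the lowest fold of any 5S peak in shCtrl cells against IgG (2.26). Of all genes 25.1%, 14.6% and 29.3% had a peak in these lists, and 0.919%, 0.0475% and 0.056% a strong one. Against input, strong peaks lay at 0.902%, 0.00339% and 0.0102% of all genes in unmodified ARID1A, H3K9me3 and TRIM28, with none at a 5S gene.

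**Figure D2:**
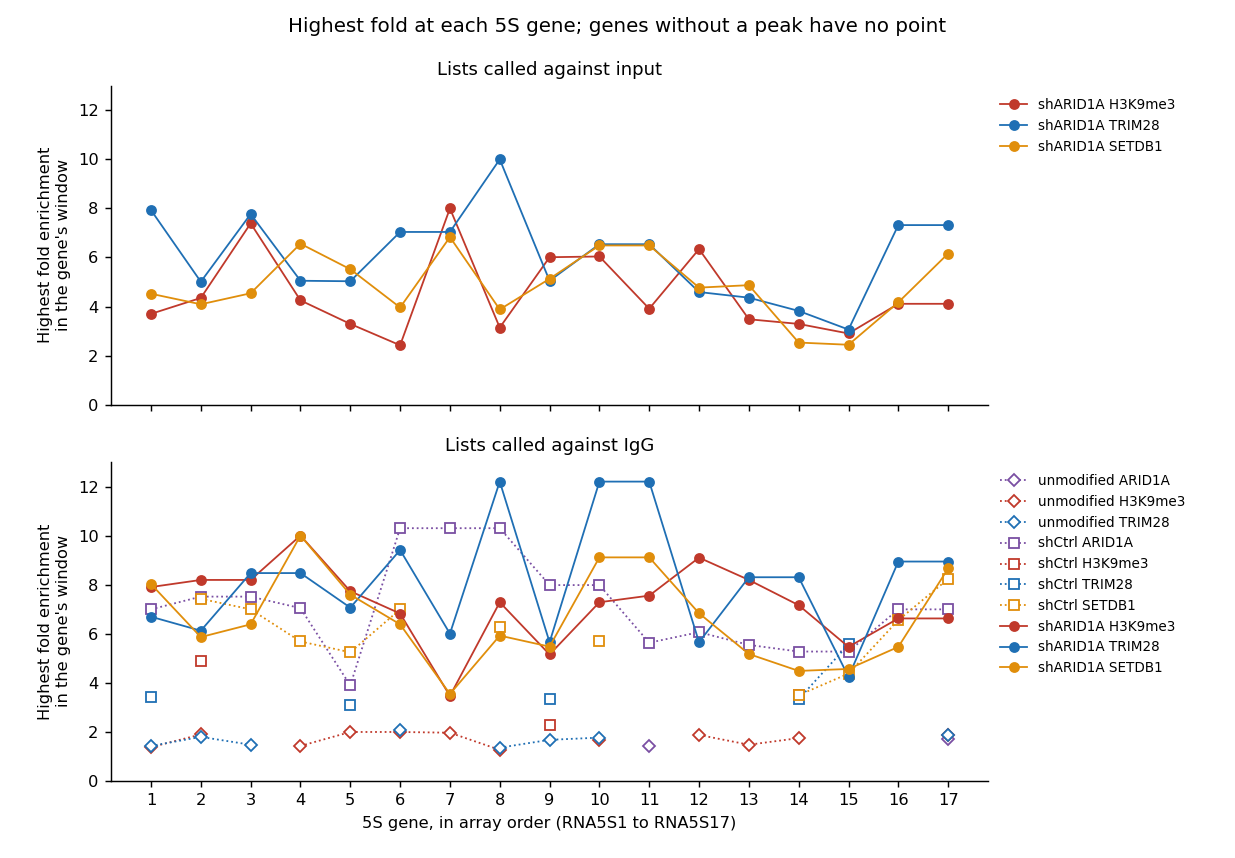
Highest fold enrichment (y axis) at each of the 17 5S genes in array order (x axis), against input (upper) and IgG (lower). Each point is 1 gene in 1 library, colour gives the antibody and shape the cell state. Against input only the 3 shARID1A libraries have points, between 2.42 and 10.0, and against IgG shCtrl ARID1A lies among them while unmodified cells lie between 1.26 and 2.08.

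The fragments under these peaks and the control's background were recovered from each peak's fold and p, which was possible for all 644 of 644 peaks at rRNA genes, with 1 peak allowing more than 1 solution. At 5S summits against IgG, the median precipitated pileup in the shCtrl ARID1A library was 12 fragments. In shARID1A cells it was 14 fragments for H3K9me3, 12 for TRIM28 and 13 for SETDB1. The range was 4 to 22 fragments in the first and 4 to 25 in the others, so the ranges overlapped nearly whole. The IgG background there had a median of 1.13 fragments for the former, and of 1.20, 1.12 and 1.20 for the 3 shARID1A lists, which is the most common background of each list. At the 5S summits of unmodified cells both values were higher, in lists whose most common background was also higher (2.38 to 2.43). Pileups had medians of 60, 40.5 and 37.2 scaled fragments in ARID1A, H3K9me3 and TRIM28, and the IgG background medians of 38.0, 24.3 and 21.6, or 15.9, 10.1 and 8.87 times the most common background of the list.

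The input background can be read only where a peak was called against input. At those 5S summits in shARID1A cells it had a median of 2.59, 1.43 and 1.72 times the most common background in the H3K9me3, TRIM28 and SETDB1 lists. In shCtrl ARID1A none of the 30 summits called against IgG lay in a peak against input. For the caller's Poisson p to miss its threshold at these 30 summits, the shCtrl input background had to be at least 1.5 to 12.8 times the most common one, with a median of 5.96. The same bound had a median of 6.80 (2.71 to 11.3) at the 12 summits of shCtrl SETDB1. In shARID1A cells 14 of 36 H3K9me3 summits, 3 of 30 TRIM28 summits and 5 of 29 SETDB1 summits called against IgG lay in no peak against input, and there the bound had a median of 3.41 (1.17 to 8.62), 2.32 (2.32 to 4.83) and 1.69 (1.17 to 2.82). Measured backgrounds come only from summits called against input and bounds only from summits that were not, so they do not compare the cell states on like terms. These are bounds at single positions, at summits chosen in each library, and a region shorter than the caller's minimum length would also go unlisted. Whether the 5S difference against input comes from the precipitated DNA or from the input of 1 library per state cannot be told apart.

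**Figure D3:**
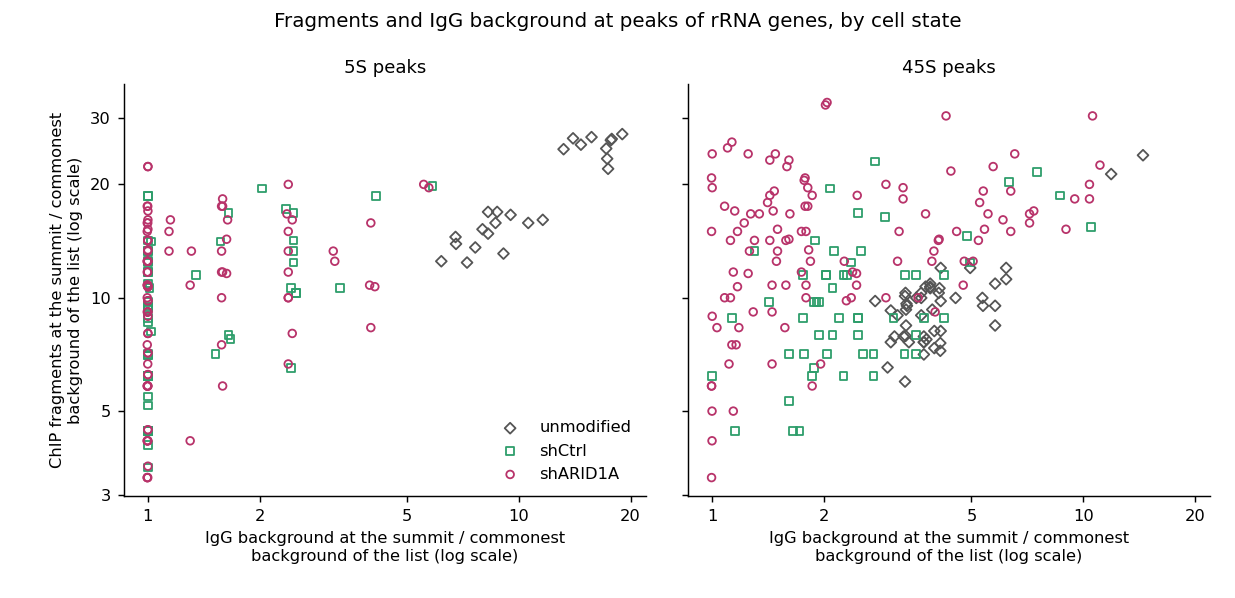
Precipitated fragments (y axis) and IgG background (x axis) at the summit of every 5S peak (left) and 45S peak (right) called against IgG, each divided by the most common background of its list, on log scales. Each point is 1 peak and shape and colour give the cell state. At 5S peaks of unmodified cells the IgG background lies between 6.18 and 19.0 times the common level, while most shCtrl and shARID1A peaks lie at 1.

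Within the 5S repeat, summits lay at different places in different libraries. Places are counted from the lower end of the nearest gene, since the table carries no strand. In shCtrl SETDB1 against IgG, 9 of 12 summits lay inside the 121 bp gene, which makes up 5.40% of the repeat, and 11 of 12 lay in it or within 100 bp of it. The summit at RNA5S17 was 1 bp from the lower end of the gene (fold 8.23), the one at RNA5S3 was 5 bp (6.99) and the one at RNA5S2 was 24 bp (7.42). By contrast 5 of 6 summits of shCtrl TRIM28 and 3 of 4 of shCtrl H3K9me3 lay in the spacer 850 to 1000 bp after the lower end, a stretch of 6.74% of the repeat that was chosen after these values were seen. The twelfth SETDB1 summit lay there too, at 926 bp after the lower end of RNA5S17.

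The place of the summits within the repeat was counted next. In shARID1A cells against IgG, 12 of 36 H3K9me3 summits, 2 of 30 TRIM28 summits and 6 of 29 SETDB1 summits lay in the gene or within 100 bp of it, a stretch of 14.3% of the repeat. In shCtrl ARID1A the number was 7 of 30. Peaks were also wider: the median width at 5S was 700 bp in shARID1A TRIM28, 998 bp in shARID1A SETDB1 and 638 bp in shCtrl ARID1A, compared with 243 bp in shCtrl SETDB1. For shARID1A H3K9me3 it was 460 bp.

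**Figure D4:**
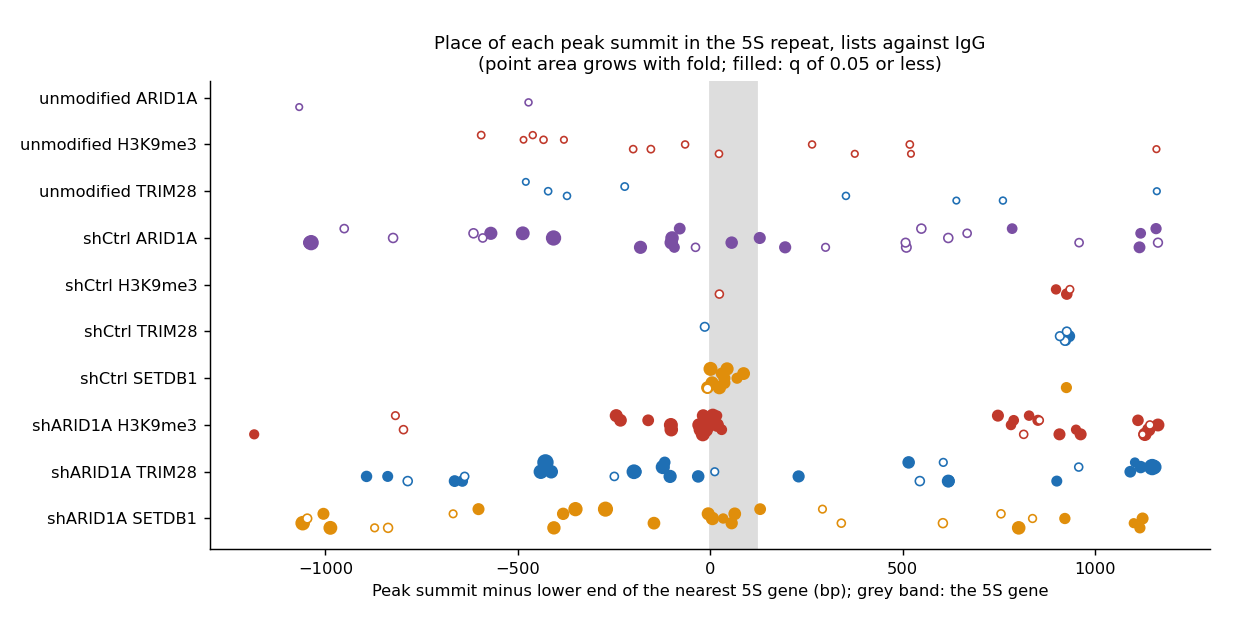
Place of each 5S peak summit called against IgG, as its distance in bp from the lower end of the nearest 5S gene, by library (rows). Point area grows with fold, filled points have q of 0.05 or less, and the grey band is the gene. In shCtrl SETDB1 11 of 12 summits lie at or beside the band, and in shARID1A TRIM28 2 of 30 do.

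The 45S units had peaks against input in all 4 shCtrl libraries, where the counts for H3K9me3, TRIM28 and SETDB1 were near the share of all genes with a peak. The units lie on chromosome 21 at 8205988 to 8219302 (RNA45SN2), 8389035 to 8402343 (RNA45SN3) and 8433222 to 8446572 (RNA45SN1), and RNA45SN4 and RNA45SN5 lie on scaffolds that the gene table does not name. These were taken to be the chromosome 22 scaffold and an unplaced scaffold of the assembly that hold an rRNA unit. Units were 13309 to 13373 bp long. Against input, 15 of 20 genes had a peak in shARID1A H3K9me3, 20 in TRIM28 and 20 in SETDB1, compared with 7, 6 and 9 in shCtrl cells, 18 in shCtrl ARID1A and 0 in each unmodified library. The all-gene shares in these shARID1A lists were 27.4%, 48.5% and 23.6%. The 45S shares in shCtrl H3K9me3, TRIM28 and SETDB1 were 35% (95% interval 15.4% to 59.2%), 30% (11.9% to 54.3%) and 45% (23.1% to 68.5%). They stood beside 29.3%, 25.2% and 34.7% of all genes, and in shCtrl ARID1A 90% stood beside 31.8%. The intervals are for counting error only and as if genes were independent, which they are not. Only 4, 3 and 5 peaks, in 3, 3 and 4 of the 5 units, gave the shCtrl counts of 7, 6 and 9 genes. Strong peaks lay at 11, 20 and 20 genes in shARID1A cells, where 9.65%, 2.05% and 1.93% of all genes had one. In shCtrl cells they lay at 4 genes for H3K9me3, 0 for TRIM28, 8 for SETDB1 and 5 for ARID1A. Of all genes 6.02%, 0.017%, 24.9% and 0.0814% had one. A peak counts for each gene whose window it meets, so these shCtrl counts came from 2, 0, 4 and 2 strong peaks.

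TRIM28 in shARID1A cells covered 83.9% of the 76705 bp of 45S windows against input, with 38 peaks of a median width of 1610 bp, 30 of them strong. SETDB1 covered 66.1% with 64 peaks, 39 of them strong, and H3K9me3 9.98% with 19 peaks, 10 of them strong. In shCtrl cells the covered shares were 1.06% for TRIM28, 2.69% for SETDB1, 1.90% for H3K9me3 and 16.4% for ARID1A. All 5 units had a strong TRIM28 and a strong SETDB1 peak in shARID1A cells. The highest TRIM28 fold of a unit was 13.2 in RNA45SN2, 11.8 in RNA45SN3 and RNA45SN4, 10.6 in RNA45SN1 and 7.2 in RNA45SN5. For SETDB1 it was 11.3 in RNA45SN2, 10.8 in RNA45SN4, 8.56 in RNA45SN3, 7.78 in RNA45SN5 and 7.14 in RNA45SN1.

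The tallest TRIM28 and SETDB1 peaks lay where the unit begins and in its spacers. A TRIM28 peak of 4356 bp with its summit at -492 bp from the start of RNA45SN2 had a fold of 13.2, the third highest of all 206069 peaks in the list (rank 3). The summit at -449 bp in RNA45SN3 had a fold of 10.8, and a pair of summits in ITS1, at 6520 bp in RNA45SN2 and 6497 bp in RNA45SN3, had folds of 12.3 and 11.8. SETDB1 had a fold of 11.3 at -423 bp in RNA45SN2 and 8.56 at -421 bp in RNA45SN3. Past the end of the unit, TRIM28 reached 10.8 at 13481 bp and SETDB1 10.8 at 13577 bp in RNA45SN4. Inside the mature rRNA parts the highest TRIM28 fold was 7.68 and the highest SETDB1 fold 7.78. At the MIR6724-4 hairpin, upstream of RNA45SN1, TRIM28 of shARID1A cells had a strong peak against input with a fold of 5.46. SETDB1 of these cells had one of 3.63 that was not strong. Against IgG both were strong, with folds of 6.06 and 4.38, and shCtrl ARID1A had a peak of 2.04 that was not strong. At MIR10396B only SETDB1 of shARID1A cells had a peak, with a fold of 3.16 against input and 3.64 against IgG, neither strong.

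The H3K9me3 summits of shARID1A cells lay mostly in mature rRNA sequence. Of 19 summits against input, 18 lay in 18S, 5.8S or 28S sequence, which makes up 46.2% of the windows, and 0 lay in the upstream 1 kb or the 5′ external spacer, which make up 30.3%. For TRIM28 these numbers were 18 and 11 of 38, for SETDB1 33 and 17 of 64, and for shCtrl ARID1A 9 and 13 of 31. The highest H3K9me3 fold was 6.98 at 5216 bp in RNA45SN2, within 18S, and the next were 6.44 and 5.64 at 11694 and 11693 bp in RNA45SN1 and RNA45SN3, within 28S. The few shCtrl summits against input also lay there, with 3 of 3 for TRIM28 and 5 of 5 for SETDB1 in mature rRNA. In shCtrl H3K9me3 all 4 summits against input lay in 18S or 28S, with a strong one of fold 4.6 at 11657 bp in RNA45SN3. Against IgG the counts for shARID1A H3K9me3 were 24 and 3 of 30. Unmodified H3K9me3, with 45S peaks only against IgG, had 22 of 35 summits in mature rRNA. Another 10 of its 35 lay in the upstream 1 kb or the 5′ external spacer. In shCtrl cells against IgG, 3 of 3 H3K9me3, 0 of 2 TRIM28 and 1 of 2 SETDB1 summits lay in mature rRNA. No test was made of these shares, since units share their sequence.

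Against IgG, 19, 20 and 20 of the 45S genes had a peak in shARID1A H3K9me3, TRIM28 and SETDB1, and 18, 20 and 20 a strong one. Of all genes 59.5%, 58.0% and 57.7% had a peak in these lists, and 26.1%, 5.17% and 9.68% a strong one. The shCtrl ARID1A library had peaks at 19 genes, strong at 15, where 58.7% and 3.83% of all genes had one, with folds of 1.80 to 6.87 and 32.9% of the bases covered. Its summits in ITS1 reached 6.87 and those upstream of a unit 6.48, while its highest fold in mature rRNA was 3.80. The shCtrl H3K9me3, TRIM28 and SETDB1 libraries had peaks at 4, 3 and 4 genes, or 20%, 15% and 20%, which is below the all-gene shares of 53.0%, 53.7% and 43.3%. Unmodified H3K9me3 had peaks at 18 genes, beside 14.6% of all genes, with folds up to 3.23, and strong ones at 5, beside 0.0475%. Those 5 genes shared 2 strong peaks. Unmodified TRIM28 had peaks at 12 genes, beside 29.3%, with folds up to 2.88. Its strong ones lay at 2 genes, from 1 peak, beside 0.056% of all genes. Unmodified ARID1A had peaks at 2 genes, beside 25.1%, and strong ones at 0, beside 0.919%. Median pileups at 45S summits against IgG were 21 fragments in shARID1A TRIM28, 17 in SETDB1, 14 in H3K9me3 and 10 in shCtrl ARID1A, and the IgG background medians were 1.99, 2.13, 2.61 and 2.41.

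**Figure D5:**
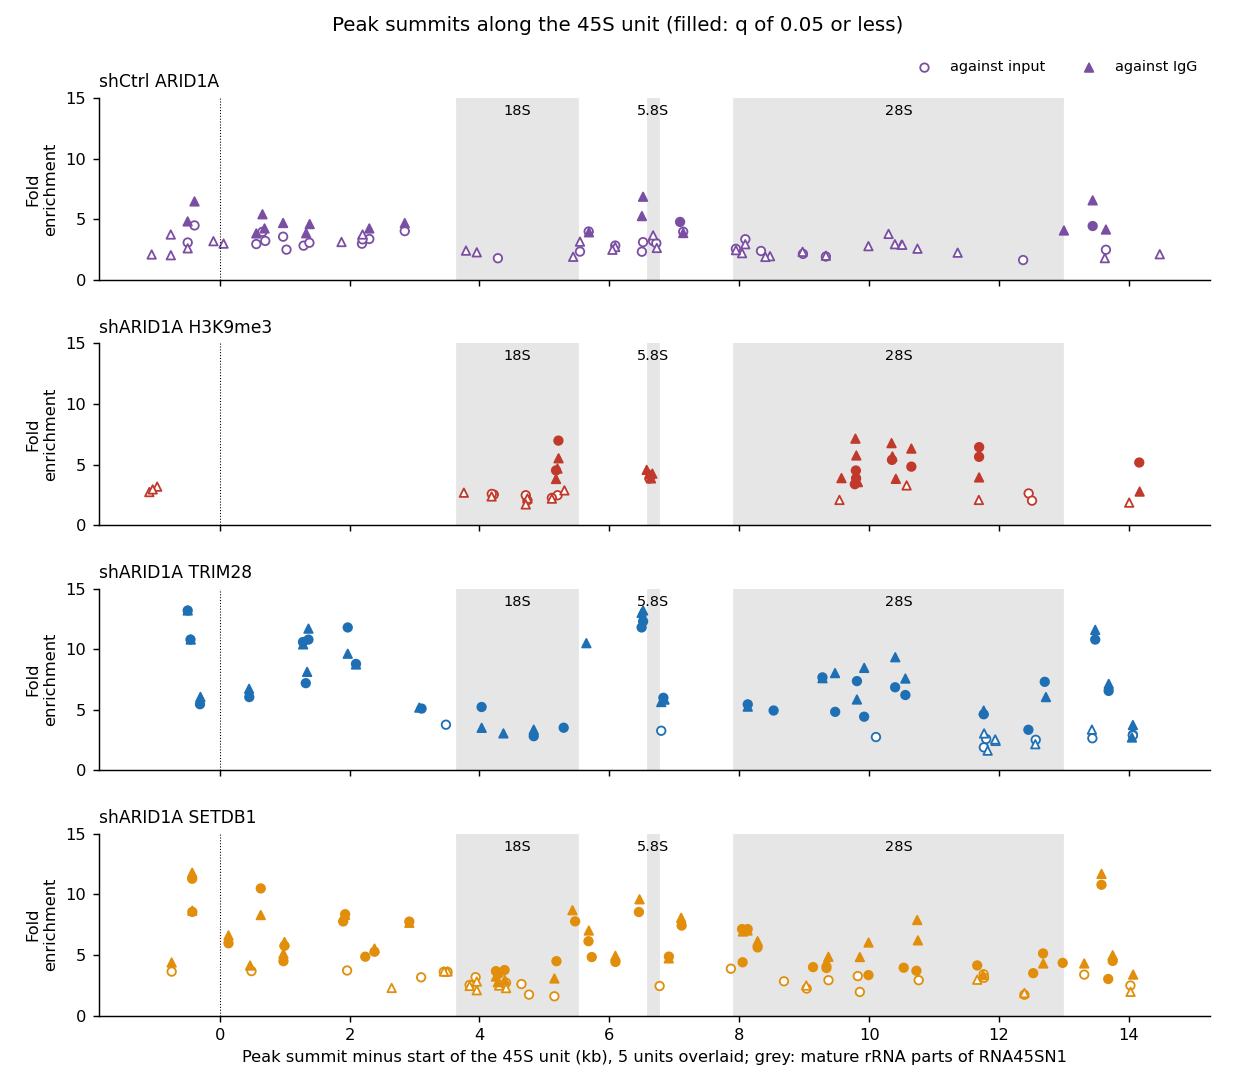
Fold enrichment (y axis) of each peak summit along the 45S unit (x axis, kb from the unit's start, 5 units overlaid) in 4 libraries. Circles are lists against input and triangles against IgG, filled where q was 0.05 or less, and grey bands are 18S, 5.8S and 28S. TRIM28 and SETDB1 of shARID1A cells reach 13.2 and 11.8 upstream of the unit, while H3K9me3 has no summit there against input.

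Other genes of RNA polymerase III were compared with the 5S genes. Of 429 nuclear tRNA genes, 73.0% (95% interval 68.5% to 77.1%) had a peak against input in shCtrl SETDB1 and 9.09% (6.54% to 12.2%) in shARID1A SETDB1, while the 5S genes went from 0 to 17 of 17. In shCtrl SETDB1 all 21 of 21 other polymerase III genes, among them the 7SK, U6, vault and Y RNA genes, had strong peaks against both controls. In shARID1A H3K9me3, TRIM28 and SETDB1, 57.1%, 28.6% and 23.8% of these genes had a peak against input, and 85.7%, 85.7% and 95.2% against IgG. In shCtrl H3K9me3 and TRIM28 the share was 4.76% in each against input, and 47.6% and 23.8% against IgG. In shCtrl ARID1A it was 85.7% against IgG, where 58.7% of all genes had a peak. For H3K9me3 the tRNA share was 11% in shCtrl and 42.9% in shARID1A cells, and for TRIM28 4.66% and 17.7%. Against IgG the tRNA share in SETDB1 was 77.6% in shCtrl and 65.7% in shARID1A cells, where the 5S genes went from 11 to 17. For H3K9me3 it was 39.4% and 76.5% and for TRIM28 21.4% and 58.3%. Strong SETDB1 peaks against IgG lay at 71.8% of tRNA genes in shCtrl and 16.3% in shARID1A cells, and at 10 and 17 of the 5S genes. The highest tRNA fold was 18.1 at TRQ-TTG3-3, a glutamine tRNA gene, and the next 16.2 at TRS-TGA4-1, a serine tRNA gene, both in shCtrl SETDB1. VTRNA1-1 and VTRNA1-3, which encode vault RNAs, reached 13.7 and 12.9 in that library. Shares of all genes with a peak against input were 34.7% in shCtrl SETDB1 and 23.6% in shARID1A SETDB1. They were 29.3% and 27.4% in H3K9me3 and 25.2% and 48.5% in TRIM28. Against IgG they were 43.3% and 57.7% in SETDB1, 53.0% and 59.5% in H3K9me3, and 53.7% and 58.0% in TRIM28. Strong SETDB1 peaks lay at 24.9% of all genes in shCtrl and 1.93% in shARID1A against input, and at 32.8% and 9.68% against IgG.

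Copies of 5S sequence dispersed over the genome were counted in the same way. Of 510 5S rRNA pseudogenes, 5.10%, 15.3% and 3.33% had a peak against input in shARID1A H3K9me3, TRIM28 and SETDB1, compared with 7.25%, 5.88% and 5.29% in shCtrl cells. Against IgG the shares were 21%, 19.2% and 18.2% in shARID1A and 17.6%, 17.5% and 6.86% in shCtrl cells. Strong peaks against input lay at 6, 0 and 0 of them in shARID1A cells, or 1.18%, 0% and 0%, beside 9.65%, 2.05% and 1.93% of all genes. In shCtrl cells they lay at 1, 0 and 16, or 0.196%, 0% and 3.14%, beside 6.02%, 0.017% and 24.9% of all genes. The highest folds were 14.4 near RNA5SP483 and 7.36 near RNA5SP465, both in shCtrl SETDB1. These shares were below those of all genes in the same lists, and pseudogenes are short.

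The protein-coding genes that make and use rRNA were followed in 5 lists of 67 genes in all, which cover the RNA polymerase I machinery (16), chromatin regulators of rRNA genes (14), pre-rRNA processing (14), 5S transcription (18) and the 5S ribonucleoprotein (5). Against input, 38, 52 and 28 of the 67 had a peak in shARID1A H3K9me3, TRIM28 and SETDB1, and 30, 24 and 47 in shCtrl cells. Strong peaks lay at 13, 5 and 4 genes in shARID1A and at 6, 0 and 35 in shCtrl cells. The share of all genes with a SETDB1 peak went in the same direction between these lists, from 34.7% in shCtrl to 23.6% in shARID1A cells, and that with a strong one from 24.9% to 1.93%. For TRIM28 the share of all genes went from 25.2% in shCtrl to 48.5% in shARID1A cells, with strong peaks at 0.017% and 2.05%. For H3K9me3 it went from 29.3% to 27.4%, with strong peaks at 6.02% and 9.65%. Against IgG 65 of the 67 had a SETDB1 peak in shARID1A and 59 in shCtrl cells, with a strong one at 18 and 52. Of all genes 57.7% and 43.3% had a peak in these 2 lists, and 9.68% and 32.8% a strong one. Protein-coding genes are longer than most entries of the table, so the all-gene share is a low mark for them.

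In the polymerase I list, strong peaks reached a fold of 9.15 at TAF1B, a subunit of the promoter selectivity factor SL1, in shCtrl H3K9me3. POLR1F, a polymerase I subunit, reached 5.96 and TBP, the TATA-binding protein, 5.05, both in shCtrl SETDB1. Among regulators of rRNA gene chromatin, BAZ2A, the large subunit of the nucleolar remodelling complex NoRC, reached 7.30 and PHF8, a histone demethylase that activates rRNA genes, 5.08 in shCtrl SETDB1. KDM2A, a histone demethylase, reached 5.36 in shCtrl H3K9me3. Of the processing factors, NOP14, of the small subunit processome, reached 9.83 in shARID1A SETDB1, and WDR12 and WDR43, which act in maturation of the large and small subunit, 5.71 and 5.50 in shCtrl SETDB1.

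In the 5S transcription list, POLR3E, a polymerase III subunit, reached 9.27 in shCtrl SETDB1 and POLR3B, another subunit, 6.77 in shCtrl H3K9me3. MAF1, the repressor of polymerase III, had a strong peak with a fold of 9.25 in shARID1A SETDB1. In the 5S ribonucleoprotein list, RPF2, which loads the particle onto the large subunit, reached 4.46, MDM2, the ubiquitin ligase that the particle binds, 4.30, and RPL5, a ribosomal protein of the particle, 3.97, all in shCtrl SETDB1.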

How the data were processed

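The submitters' processing notes name hg38, Bowtie2 2.2.5 and MACS2 2.2.7.1, beside FastQC 0.11.9, deepTools 3.5.1 and ChIPseeker. How reads that fit several copies were treated is not given in the sources used here. There is 1 pair of lists per library. Fold enrichment in the deposited lists is the authors' ratio of pileup to control background at the summit, and the deposited −log10 p and −log10 q come from the same call. The antibody products named for H3K9me3 and TRIM28 in the protocol differ from those in the sample characteristics, per the labels.

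Gene positions are RefSeq's (GRCh38.p14), where 58957 genes placed on a chromosome gave the all-gene shares and 831 others were left out. Fragments (x) and background (b) were recovered from fold = (x + 1)/(b + 1) and the Poisson p, with x whole fragments times a scale found per list from 400 sampled peaks (tolerance 0.0005 in −log10 p), a step tested on simulated data. Intervals are exact Clopper-Pearson. Members and lists were chosen with earlier results of these data known. Named with values were the 5S genes and 45S units with a strong peak, the 3 genes of highest fold among strong peaks in each pathway list, and the 2 of highest fold in each comparison set, over the lists against input. Python 3.11.15, pandas 2.3.3 and scipy 1.17.1 were used.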

Additional observations from a re-analysis of the deposited data

How the results depend on the processing

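The alternatives were the IgG control, peaks in both controls, q of 0.05 or less, extensions of 0 and 5000 bp in place of 1000 bp, summits inside the window and, chosen after seeing the data, the chromosome 21 units only. In none of the 39 comparisons of these settings with the reported shARID1A minus shCtrl counts did the sign turn, and 32 stayed within 1.5 times. For the 5S genes, however, the sign could not turn in several of them. The shCtrl count against input was 0 for each antibody. Both controls, the q limit, no extension and summits inside the window only select among those peaks. The 5S count for SETDB1 moved from 17 to 6 against IgG. The 45S count for H3K9me3 moved from 8 to 15 against IgG and to 15 with both controls. That for SETDB1 moved from 11 to 18 with both controls, to 6 with 5000 bp and to 7 on chromosome 21 alone, where that for TRIM28 moved from 14 to 8 with 12 genes left. The cause was not tested except for the last, where fewer genes are counted. No paired analysis was possible because each group held 1 library, and for the same reason no library could be left out. Pileups were small, and the median 5S summit of shARID1A cells held 12 to 15.4 scaled fragments against input. Whether sequencing depth limited the lists was not tested.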

Other observations

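Of 9 pseudogenes of the 45S kind placed on chromosomes, those on chromosome 21 near the rRNA units had strong TRIM28 and SETDB1 peaks in shARID1A cells. RNA18SP5, at 8253842 to 8255704, and RNA5-8SP10, at 8256780 to 8256936, shared a strong TRIM28 peak of shARID1A cells with a fold of 7.53 against input. SETDB1 of shARID1A cells had strong peaks against input with folds of 4.96 and 7.66 at these genes. In shCtrl ARID1A the folds against input were 4.32, not strong, and 5.58, strong. The 4.32 peak lay elsewhere, inside RNA18SP5 at 8253977 to 8254231. Against IgG shCtrl ARID1A had strong peaks at both genes, with folds of 4.69 and 4.54. For H3K9me3 of shARID1A cells, 0 of the 9 pseudogenes had a peak against input, where 15 of 20 45S genes had one. Against IgG its only peak at RNA18SP5 and RNA5-8SP10 was at the latter, with a fold of 3.18, not strong. No other pseudogene of this kind had a strong peak in any of the 20 lists.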
